A study of Mus musculus with 2 samples.

Results

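The genes described here are the 6 SUMO proteases of the SENP family measured in regulatory T cells (Senp1, Senp2, Senp3, Senp5, Senp6 and Senp7), the SUMO-targeted ubiquitin ligases Rnf4 and Rnf111, and Pml. They were taken by gene symbol, and all 9 were found among the 24081 gene symbols of the count table. Treg cells are CD4+ T cells that express the transcription factor Foxp3 and hold immune responses in check. They were sorted as CD4+ YFP+ cells from lymph nodes and spleen of 5-week-old C57BL/6 mice. The KO library came from Foxp3cre/wt mice with 2 floxed alleles of the targeted SUMO pathway gene, and the WT library from Foxp3cre/wt mice with 1 floxed and 1 wild-type allele of it. Both groups thus carried the Cre recombinase, which is expressed from the Foxp3 locus, and YFP marked the cells that expressed it. Foxp3 lies on the X chromosome, so a mouse with 1 Cre allele also keeps Treg cells that do not express Cre, and those are outside the sort. Cells of 5 to 10 mice were pooled for each library, and there was 1 library per group. The differences below therefore have no replicate check, and no significance test was possible. The groups rest on the sample titles, because the genotype field names both samples wild type.

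SUMO is a small protein that is joined to lysines of other proteins by an enzyme cascade of activating, conjugating and ligating enzymes, and SENP proteases reverse the step. SENP1 and SENP2 act on all SUMO forms and gather at the nuclear envelope, SENP3 and SENP5 are nucleolar and prefer the close relatives SUMO2 and SUMO3, and SENP6 and SENP7 trim chains built of these. SUMO-targeted ubiquitin ligases bind SUMO chains through SUMO-interacting motifs and add ubiquitin, which passes the modified protein to the segregase p97 and the proteasome. PML builds the nuclear bodies named after it, is itself heavily SUMOylated, and is a classical substrate of RNF4. SUMOylation is best known for its effects on transcription factors, DNA repair and chromatin, and the study asks whether Treg cells need it to expand and to function.

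Reads assigned to genes numbered 23789264 in the KO library and 11662867 in the WT library. Levels are given as counts per 1000000 reads (CPM), with library sizes scaled by the TMM factors of edgeR (trimmed mean of M values), and folds as KO over WT ratios of these. Intervals on levels and folds are exact 95% intervals for counting error only, since reads carry no molecular identifiers and the spread between mice is not in them. Defining Treg transcripts were abundant, with 30579 reads of Foxp3, 28043 of Il2ra and 54375 of Cd4 in the KO library, against 8540, 10648 and 23224 in the WT library. Of the 7 Treg markers 2 were at least 1.5-fold higher in KO, Lrrc32 (2.36-fold) and Foxp3 (1.85-fold), and 2 at least 1.5-fold lower, Ctla4 (1.61-fold) and Ikzf2 (1.59-fold). Of all expressed genes, as defined below, 7.43% were that much higher and 5.51% that much lower. With the GC trend described below removed, log2 ratios were 0.93 for Lrrc32, 0.76 for Foxp3, -0.47 for Ctla4 and -0.55 for Ikzf2. None of the 7 was then 1.5-fold lower. Exons of Foxp3 overlap those of Flicr in the same orientation over 853 bases, which makes the Foxp3 count uncertain. On the opposite strand they overlap Ccdc22 over 590 bases, Gm36995 over 373 and Ppp1r3f over 266. RNA of other cells was present in both libraries: the 5 monocyte and macrophage markers summed to 418 CPM in KO and 461 in WT, the 5 B cell markers to 91.2 in KO and 113 in WT, and the 3 CD8 T cell markers to 47.8 in KO and 37.1 in WT. Of these 13 markers none was at 0, and their part in the ratios below was not tested. Erythroid markers summed to 5.57 CPM in KO and 14.3 in WT, with Hba-a1 and Hbb-bs at 0 in both. Plasma cell markers summed to 129 in KO and 190 in WT, most of it Xbp1, at 111 in KO and 163 in WT. Of the same list, Jchain stood at 3.24 in KO and 4.93 in WT, and Sdc1 at 0.389 in KO and 0.584 in WT. Stromal and endothelial markers summed to 332 in KO and 305 in WT, nearly all of it Pecam1, and dendritic cell markers to 25.6 in KO and 20.2 in WT. NK cell markers, with Klra8 at 0 in both, summed to 1.17 CPM in KO and 2.84 in WT, and neutrophil markers to 1.99 in KO and 1.002 in WT. In sorted bulk cells, fewer cells of a type and less RNA per cell cannot be told apart.

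Set beside expressed genes in general, the 9 genes were not marked out by the number past a fold limit. None of them was 1.5-fold higher or lower in KO, where 7.43% of the 10899 expressed genes (mean of at least 20 reads over both libraries) were at least 1.5-fold higher and 5.51% at least 1.5-fold lower. At 1.2-fold, 1 gene was lower, Rnf4, and none was higher, against 19.3% of expressed genes lower and 24.1% higher. The median log2 ratio of the 9 genes was 0.08, against 0.01 for all expressed genes, and 7 of the 9 had a ratio above 0, against 51.4% of expressed genes. All but Rnf4 lay between the lower and upper quartiles of all expressed genes, which were -0.20 and 0.25 on the log2 scale. The 9 genes are deeply counted, with 821 to 4502 reads in a library, and ratios of deeply counted genes spread less. Among the 3824 genes with a mean of at least 1000 reads, a limit chosen after seeing the data, the quartiles were -0.14 and 0.24, 23.4% were at least 1.2-fold higher and 11.5% at least 1.2-fold lower, and 5.26% were at least 1.5-fold higher and 1.2% at least 1.5-fold lower. With 9 genes, none past 1.5-fold and 1 lower at 1.2-fold are close to these shares and set the 9 apart from neither background.

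**Figure D1:**
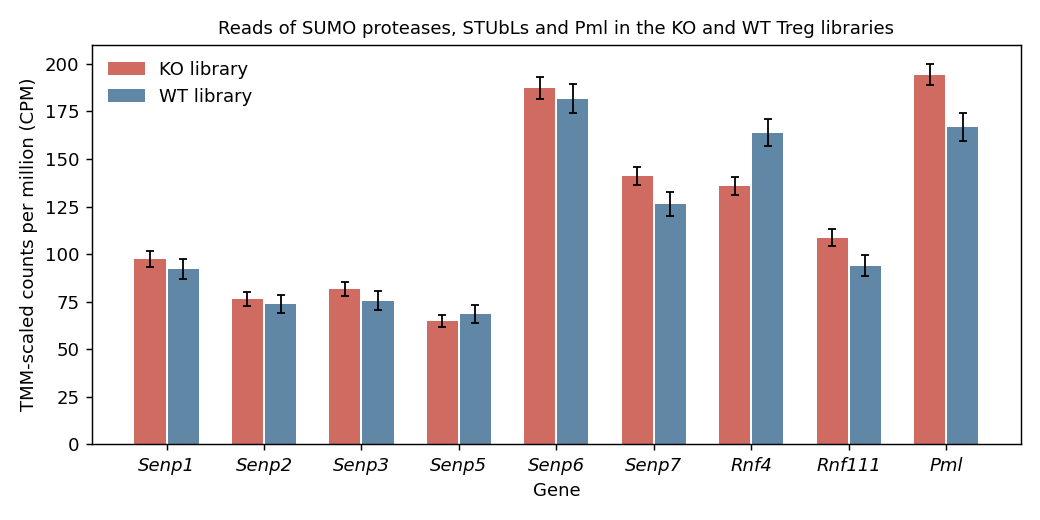
TMM-scaled CPM (y axis) of each of the 9 genes (x axis) in the KO library (red, left bar of each pair) and the WT library (blue, right bar), with 1 library per group; error bars are exact 95% Poisson intervals for counting error only. Rnf4 is the gene whose KO bar is clearly the lower of its pair, at 136 against 164, and Pml has the tallest KO bar, at 194.

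Senp1 and Senp2, the broad proteases that also mature the SUMO precursors, were near equal in the libraries. Senp1 (chromosome 15, 98038744 to 98093744, minus strand, GRCm38) had 2253 reads in KO and 1102 in WT, or 97.3 CPM in KO and 92.0 CPM in WT, a fold of 1.06 with an interval of 0.983 to 1.14. Senp2 (chromosome 16, 22009484 to 22049269, plus strand) had 1771 reads in KO and 883 in WT, or 76.5 CPM in KO and 73.7 CPM in WT, a fold of 1.04 (0.956 to 1.13). Neither differed detectably at this depth. A fold above 1.14 for Senp1 or above 1.13 for Senp2 lies outside the counting interval. With scaling by total gene reads in place of TMM, the log2 ratio of Senp2 was -0.02, so its direction is not fixed by these data. Exons of Senp1 overlap those of the antisense gene Gm26513 over 462 bases and of Pfkm over 18 bases on the opposite strand. Whether reads were counted by strand is not stated in the labels.

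The nucleolar proteases lay on either side of even. Senp3 (chromosome 11, 69673115 to 69682084, minus strand), which acts on ribosome assembly factors such as nucleophosmin, had 1892 reads in KO and 902 in WT, or 81.7 CPM in KO and 75.3 CPM in WT. Its fold of 1.08 had an interval that just cleared 1 with TMM scaling, from 1.002 to 1.18. With total-count scaling its log2 ratio was 0.04. Senp5 (chromosome 16, 31959672 to 32003287, minus strand), its nearest relative, had 1498 reads in KO and 821 in WT, or 64.7 CPM in KO and 68.5 CPM in WT. It was 1.06-fold lower in KO, with a KO over WT interval of 0.866 to 1.03, which spans no difference. A ratio of 2 genes within a library does not depend on scaling between libraries. The Senp3 to Senp5 read ratio was 1.26 in KO and 1.10 in WT, a ratio of these of 1.15 (1.02 to 1.29), and 1.07-fold once the GC trend described below was removed. Exons of Senp5 overlap those of Ncbp2 on the opposite strand over 131 bases, and Ncbp2 had 718 reads in KO and 426 in WT.

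The chain-trimming proteases had the most reads of the SENP genes in both libraries, a count that also depends on transcript length. Senp6 (chromosome 9, 80066903 to 80144953, plus strand) had 4336 reads in KO and 2176 in WT, or 187 CPM in KO and 182 CPM in WT, a fold of 1.03 (0.979 to 1.09). With total-count scaling its log2 ratio was -0.03. Senp7 (chromosome 16, 56048338 to 56190012, plus strand) had 3264 reads in KO and 1513 in WT, or 141 CPM in KO and 126 CPM in WT, a fold of 1.12 (1.05 to 1.19). Senp7 had the largest fold of the 6 SENP genes, and its interval lay above 1 with TMM scaling. With total-count scaling its log2 ratio was 0.08, and no interval was computed on that scale. The Senp6 to Senp7 read ratio was 1.33 in KO and 1.44 in WT, a ratio of 0.924 with an interval of 0.852 to 1.001. Exons of Senp6 share 108 bases with the antisense gene Gm17477.

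Added together, the 6 SENP genes gave 15014 reads in KO and 7397 in WT, or 648 CPM in KO and 618 CPM in WT, a fold of 1.05 (1.02 to 1.08). The median log2 ratio of the 6 was 0.07 and their range ran from -0.08 for Senp5 to 0.16 for Senp7. These values, and the interval of the sum, are for TMM scaling. With DESeq2 size factors and with upper-quartile scaling they were close to this, at log2 ratios of -0.09 for Senp5 and 0.15 for Senp7 in both. Total-count scaling moved them further. Scaled by total gene reads, the log2 ratios were 0.003 for Senp1, -0.02 for Senp2 and 0.04 for Senp3. They were -0.16 for Senp5, -0.03 for Senp6 and 0.08 for Senp7. Levels of different genes were compared per kilobase of the longest transcript. On that scale Senp6 made up 25.6% of the summed SENP level in KO and 26.2% in WT, and Senp3 24.7% in KO and 24.0% in WT. Senp7 made up 20.4% in KO and 19.3% in WT, Senp2 11.9% in KO and 12.1% in WT, Senp1 10.3% in each, and Senp5 7.14% in KO and 7.99% in WT. On this scale the order of the 6 genes was the same in both libraries, and no share differed by more than 1.08 percentage points. Shares and order depend on the length used. With the length of all annotated exons, Senp7 made up 11.5% in KO and 10.8% in WT and Senp5 10.2% in KO and 11.3% in WT, so that this pair stood in opposite order in the libraries and the Senp5 share differed by -1.11 points. Senp8, which shares the name but acts on the modifier NEDD8, had 105 reads in KO and 59 in WT and was not counted among the SUMO proteases.

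**Figure D2:**
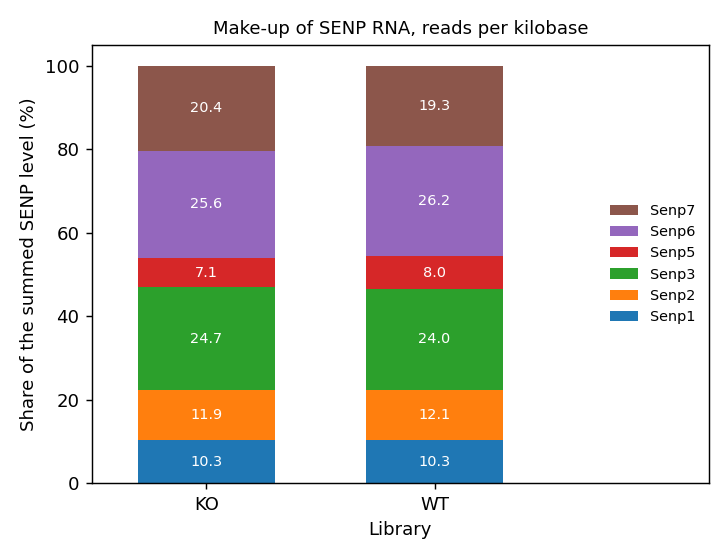
Share of each SENP gene in the summed SENP level (y axis, percent, reads per kilobase of the longest transcript) in the KO library (left) and the WT library (right), with the percentages printed in the bars and 1 library per group. The stacks are nearly the same, with Senp6, Senp3 and Senp7 as the largest parts of both.

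The ratios of Rnf4 and Rnf111 lay on opposite sides of 1. Rnf4, the RING ligase that recognises SUMO chains (chromosome 5, 34336289 to 34355629, plus strand), had 3144 reads in KO and 1962 in WT, or 136 CPM in KO and 164 CPM in WT. It was 1.21-fold lower in KO (interval 1.14 to 1.28) and stood at percentile 18.7 of the ratios of all expressed genes. Rnf111, also called Arkadia (chromosome 9, 70425424 to 70503725, minus strand), carries SUMO-interacting motifs as well and is known for degrading the repressors SKI, SKIL and SMAD7 of TGF-β signalling. It had 2518 reads in KO and 1124 in WT, or 109 CPM in KO and 93.8 CPM in WT, and was 1.16-fold higher in KO (1.08 to 1.24), at percentile 71.7. No other gene of the GENCODE annotation shares exons with either ligase. The balance of the pair differed more than either gene: there were 1.25 reads of Rnf4 for each read of Rnf111 in KO, against 1.75 in WT, which is 1.40-fold lower in KO (1.28 to 1.53). Per kilobase, the level of Rnf4 was 1.37 times that of Rnf111 in KO and 1.92 times in WT. Removing the GC trend left this at 1.35-fold lower. Without replicates this describes 2 libraries.

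Pml (chromosome 9, 58218076 to 58249786, minus strand), the scaffold of PML nuclear bodies and an interferon-inducible gene, had 4502 reads in KO and 1999 in WT, or 194 CPM in KO and 167 CPM in WT. It was 1.16-fold higher in KO (1.10 to 1.23), at percentile 72.4 of all expressed genes. Per kilobase it had the highest level of the 9 genes in both libraries, at percentile 86.1 of expressed genes in KO and 84.4 in WT, with Senp5 the lowest, at percentile 51.2 in KO and 53.3 in WT, by the longest transcript. By the length of all annotated exons Senp1 had the smallest SENP share, at 9.37% in KO and 9.28% in WT. The microRNA gene Mir6385 overlaps 105 bases of the Pml exons on the opposite strand and had 7 reads in each library.

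The start-site windows of the ligase pair with unlike ratios and of Pml, the highest of the 9 genes per kilobase, are shown as RefSeq gives them (GRCm38.p6, from 250 bases before to 50 after an annotated start, read 5′ to 3′ on the gene's strand). They lie at chr5:34336000-34336299 on the plus strand for Rnf4, chr9:70503726-70504025 on the minus strand for Rnf111 and chr9:58249737-58250036 on the minus strand for Pml. For Rnf4 and Rnf111 the first listed of several windows is given. Capitals mark letters that match a searched motif on either strand.
Rnf4: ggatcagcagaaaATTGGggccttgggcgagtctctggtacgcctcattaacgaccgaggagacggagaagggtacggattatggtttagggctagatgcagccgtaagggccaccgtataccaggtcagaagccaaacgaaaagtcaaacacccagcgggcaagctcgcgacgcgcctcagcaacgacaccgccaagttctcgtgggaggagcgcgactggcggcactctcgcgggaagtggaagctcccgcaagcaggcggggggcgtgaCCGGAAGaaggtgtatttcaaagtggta
Rnf111: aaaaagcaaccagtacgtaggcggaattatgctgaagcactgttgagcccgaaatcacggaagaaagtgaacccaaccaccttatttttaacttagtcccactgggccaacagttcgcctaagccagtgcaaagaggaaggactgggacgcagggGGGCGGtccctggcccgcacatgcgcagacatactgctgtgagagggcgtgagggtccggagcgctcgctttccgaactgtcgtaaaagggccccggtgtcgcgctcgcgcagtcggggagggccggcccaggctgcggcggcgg
Pml: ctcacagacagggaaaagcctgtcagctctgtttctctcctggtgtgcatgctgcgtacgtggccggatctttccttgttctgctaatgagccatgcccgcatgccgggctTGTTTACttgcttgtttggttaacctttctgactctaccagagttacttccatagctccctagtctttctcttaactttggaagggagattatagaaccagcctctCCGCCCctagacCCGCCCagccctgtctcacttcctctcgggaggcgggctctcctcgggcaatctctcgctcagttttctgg

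The shown windows of Rnf4 and Rnf111 hold 26 and 25 CpG dinucleotides and that of Pml 11, against a median of 7 over the 32851 windows of the table. The Rnf4 window holds an ETS motif (CCGGAAG, in 8.86% of all windows) and a CCAAT box (CCAAT, 37.4%), which overlap no other match. The Rnf111 window holds a GC box (GGGCGG, 35.7%), a motif that the windows of Rnf4 not shown hold as well. The Pml window holds 2 GC boxes and a forkhead motif (TGTTTAC, 3.65%). Of the 9 genes, all matched in the table with 16 windows, 6 had a GC box in at least 1 window, 4 an ETS motif, 2 a CCAAT box, 1 the forkhead motif, and 1, Senp2, a CRE (TGACGTCA, 1.79%). The percentages are shares of single windows, and by window 8 of the 16 held a GC box, 7 an ETS motif, 3 a CCAAT box and 1 each of the forkhead motif and the CRE; windows of 1 gene can overlap. No window of the 9 genes held an ISRE, the interferon-response motif of paired GAAA runs 2 bases apart (3.44% of all windows), a GAS (TTCNNNGAA, 8.30%), an NRF1 motif (0.971%) or the E-box CACGTG (7.15%). A match is a run of letters and not a measured binding site.

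The ratios moved with the GC content of the transcripts, across genes that are not independent replicates. The Spearman correlation over expressed genes was 0.41, and the median log2 ratio was -0.18 in the lowest decile of GC content and 0.36 in the highest. The 9 genes run from 40.2% GC for Senp7 to 55.3% for Pml. Pml, Senp3 and Senp5 sat at the median of their own decile, between percentiles 49.5 and 50.3 of genes of like GC content. Senp7, whose decile had a median log2 ratio of -0.18, stood at percentile 88.7 of it, Rnf111 at 81.4 and Rnf4 at 23.5. With the trend on transcript GC content and length fitted and removed, Senp7 was 1.26-fold and Rnf111 1.22-fold higher in KO, Rnf4 was 1.10-fold lower and Pml 1.05-fold higher. The count at 1.2-fold was then 2 higher and none lower. Of the 10851 expressed genes with a GC value, 2219 were then at least 1.2-fold higher and 1730 at least 1.2-fold lower. With 9 genes, these counts do not set the 9 apart. What made the libraries differ by GC content was not tested.

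**Figure D3:**
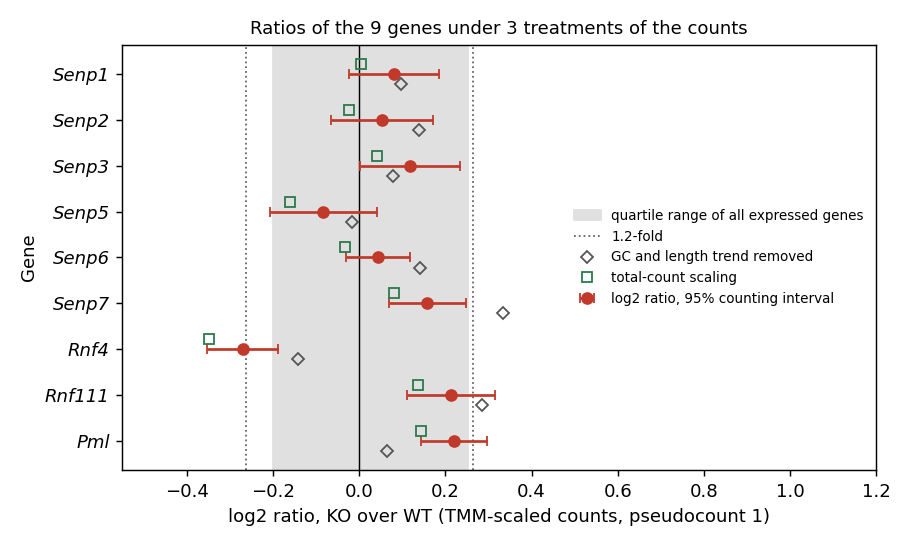
Log2 ratio of KO over WT (x axis) for each of the 9 genes (y axis): filled circles with exact 95% counting intervals as scaled by TMM, squares with total-count scaling, and diamonds with the GC and length trend removed; the grey band spans the quartiles of all expressed genes, from -0.20 to 0.25, and dotted lines mark 1.2-fold. Rnf4 at -0.27 is the gene left of the band, and its diamond at -0.14 lies inside it, while the diamonds of Senp7 (0.33) and Rnf111 (0.29) lie to the right of the band.

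**Figure D4:**
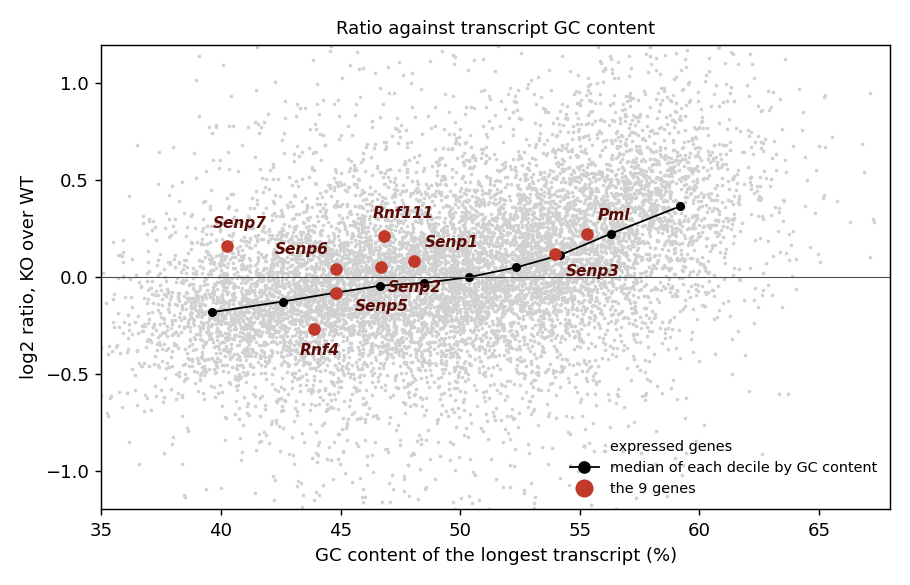
Log2 ratio of KO over WT (y axis) against GC content of the longest transcript in percent (x axis) for expressed genes (grey), the median of each decile by GC content (black line) and the 9 genes (red, labelled); 277 of 10851 genes lie outside the axes and are not drawn. Pml, Senp3 and Senp5 lie on the black line, Senp7 and Rnf111 above it and Rnf4 below it.

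Elsewhere in the pathway, 1 modifier gene and 2 ligase genes were past 1.5-fold, all higher in KO, beside 7.43% of all expressed genes past that fold upward and 5.51% downward. Of 5 genes for SUMO modifiers and the activating enzyme, 1 was at least 1.5-fold higher and none lower (median log2 ratio -0.07): Sumo3, whose protein is a preferred substrate of SENP3, SENP5, SENP6 and SENP7, had 3998 reads in KO and 1147 in WT, 1.80-fold higher (1.69 to 1.93). Sumo3 shares exon bases with Gm49325 in the same orientation, which makes its count uncertain. The 13 SUMO ligase genes held 2 that were past 1.5-fold, both higher (median of the list 0.20). These were the PIAS-like genes Zmiz2, 1.76-fold (1.70 to 1.82), and Zmiz1, 1.64-fold (1.58 to 1.70), and both were under 1.5-fold with the GC trend removed, at log2 ratios of 0.48 and 0.49. The 3 SUMO proteases of other families lay within 1.5-fold (median -0.06), with Desi2 at 1.21-fold lower (1.10 to 1.32) and Desi1 at a log2 ratio of -0.06.

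In the lists of genes that work with the 9, most members lay within 1.5-fold, as did most expressed genes (7.43% higher and 5.51% lower), so these counts do not set the lists apart. Of 14 PML body partners 13 were expressed and all lay within 1.5-fold (median 0.09). The farthest from even were the kinase gene Hipk2, 1.46-fold higher (1.33 to 1.595), and the PML body protein gene Sp140, 1.31-fold lower (1.202 to 1.44; antisense genes overlap its exons), while Tdg was listed at 0 in both libraries. The 12 genes described here for p97, its cofactors, ubiquitin and partner enzymes lay within 1.5-fold (median 0.01), with Usp11, a deubiquitinase that opposes RNF4, 1.23-fold (1.07 to 1.42) and Nploc4, a p97 cofactor, 1.18-fold (1.10 to 1.26) higher. All 7 nucleolar partners of SENP3 lay within 1.5-fold (median 0.02), with Tex10 1.29-fold (1.19 to 1.40) and Las1l 1.24-fold (1.14 to 1.35) lower. The other ribosome assembly genes of this list, Pelp1, Wdr18, Nol9 and Mdn1, had log2 ratios from 0.02 to 0.12, and Npm1 stood at -0.14.

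Among 7 genes around RNF111 in TGF-β signalling 1 was at least 1.5-fold higher and none 1.5-fold lower (median 0.18), and this was Smad7, the inhibitory SMAD that RNF111 marks for degradation, at 1.61-fold (1.501 to 1.73), or 0.45 on the log2 scale with the GC trend removed. Within 1.5-fold, and named after their values were seen because their counting intervals leave out 1, Ski was 1.43-fold (1.39 to 1.48), Axin1 1.23-fold (1.16 to 1.301) and Smad4 1.13-fold (1.08 to 1.19) higher, and Smad2 was 1.10-fold lower (1.01 to 1.19). Removing the GC trend took the log2 ratio of Ski from 0.52 to 0.32 and that of Axin1 from 0.30 to 0.09. Smad4 went from 0.18 to 0.25 and Smad2 from -0.13 to -0.09. Skil, whose protein RNF111 also degrades, was not higher, with a KO over WT fold of 0.978 (0.930 to 1.03). Smad3 had a fold of 0.947 (0.892 to 1.004), and both intervals spanned 1. With the GC trend removed, the log2 ratio was 0.09 for Skil and -0.15 for Smad3. All 8 genes for pore proteins and transport factors linked to SENP1 and SENP2 at the nuclear envelope lay within 1.5-fold (median 0.03), led by Tpr (0.17) and Kpnb1 (0.13) on the log2 scale. Of 15 interferon-stimulated genes, set beside Pml, 2 were at least 1.5-fold higher and none 1.5-fold lower (median -0.01), namely Xaf1, 2.16-fold (1.85 to 2.53), and Ifi44, 1.73-fold (1.195 to 2.55) from 127 reads in KO and 38 in WT.

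**Figure D5:**
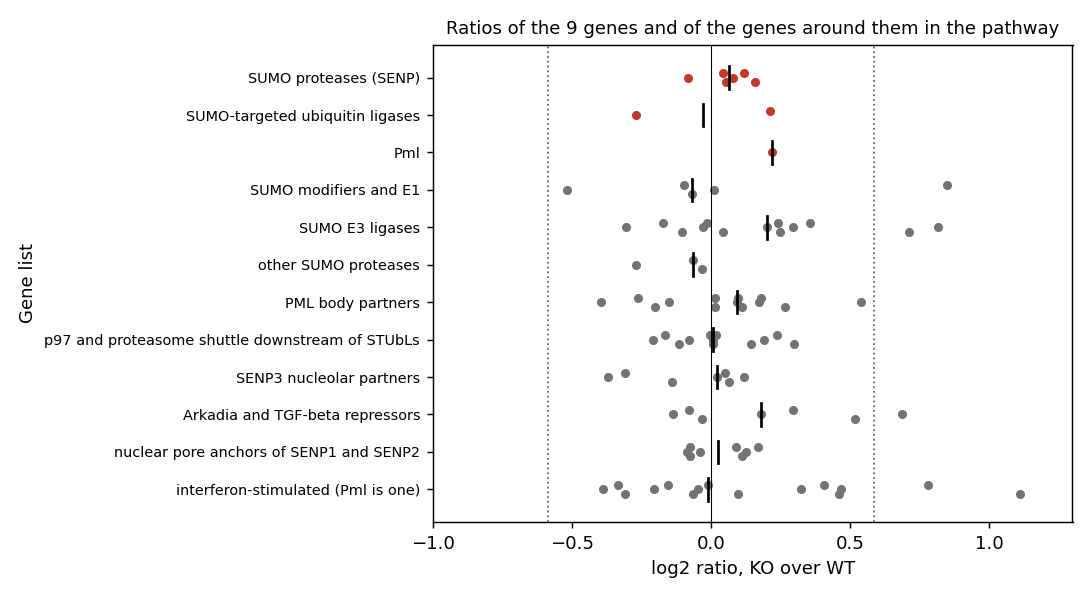
Log2 ratio of KO over WT (x axis) of single expressed genes (dots) by gene list (y axis), with the 9 genes in red, other lists in grey, a black bar at each list's median and dotted lines at 1.5-fold; there is 1 library per group. Every red dot lies inside the dotted lines, while Sumo3, Zmiz1, Zmiz2, Smad7, Xaf1 and Ifi44 lie to the right of them.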

How the data were processed

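The authors deposited 1 table of raw read counts per gene symbol for 2 libraries. The submitters' processing notes name TopHat2 2.0.3, HTSeq and the build mm10, and neither they nor the labels state an annotation or strand setting. Per the labels' protocols, Trizol RNA was enriched for mRNA on beads before a DNA library kit was applied. Of all entries, 76.6% in each library were assigned to genes; the rest (5 category rows: 15.0% aligned to several places in KO and 15.6% in WT, 6.81% in KO and 6.26% in WT outside exons, 1.57% in KO and 1.53% in WT ambiguous) stayed out of library sizes, which undercounts genes that have near-identical copies.

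Counts were scaled with TMM (edgeR 4.0.16, R 4.3.3; factors 0.974 for KO and 1.03 for WT) and given a pseudocount of 1 for log2 ratios; folds use none. Intervals are exact (Clopper-Pearson for folds, Poisson for levels, conditional for ratios of ratios) at 95%, from scipy 1.17.1 in Python 3.11.15, tested on simulated data. DESeq2 1.42.0 gave size factors only. With 1 library per group no replicate could be left out. Transcript length, GC content, places and overlaps came from the GENCODE release for GRCm38, with values for 99.6% of expressed genes. The trend was fitted with mgcv 1.9.3. Exons of Desi1, Kpnb1, Tex10, Tpr and Zmiz1 also overlap genes on the opposite strand, and the effect on their counts was not tested. The 9 genes and the gene lists were chosen with earlier results of these data known. From each list the genes past 1.5-fold are named (at most 4), or the 2 farthest from even. Tdg and the further genes of the SENP3 and TGF-β lists are named beyond this rule, those of the TGF-β list after their values were seen. The counts of the targeted gene and of 1 further gene of the lists are not reported here, and no check of the titles by the targeted gene is given.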

Additional observations from a re-analysis of the deposited data

How the results depend on the processing

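Of 154 values recomputed under another setting, 127 stayed within their counting interval or within 1.5 times the count. Sign was checked only for genes past 1.2-fold, here Rnf4 alone, and its sign did not change. Smaller ratios did change sign. With total-count scaling the log2 ratio of Senp2 went from 0.05 to -0.02 and that of Senp6 from 0.04 to below 0. With the GC trend removed, the log2 KO over WT ratio of Senp1 to Senp2 went from 0.03 to -0.04. None of the 9 genes passed 1.5-fold under any scaling, pseudocount or GC setting tried. Total-count scaling gave log2 ratios of -0.034 for Senp6 and 0.14 for Pml and moved the median of all expressed genes to -0.06. Removing the GC and length trend gave 0.14 for Senp6, 0.33 for Senp7, -0.14 for Rnf4 and 0.065 for Pml, so that at 1.2-fold 2 of the 9 genes were higher and 0 lower. With the same trend removed, 2219 of the 10851 expressed genes with a GC value were at least 1.2-fold higher and 1730 at least 1.2-fold lower. Expressed genes at least 1.2-fold higher and lower numbered 4782 and 3804 with at least 1 count, and 894 and 441 with a mean of at least 1000 counts. At 1.5-fold they numbered 2617 and 1867, and 201 and 46; with a mean of at least 100 counts they were 509 and 309. With exon union lengths the shares of the SENP level were 9.37% in KO and 9.28% in WT for Senp1, 12.7% in KO for Senp2, 10.2% in KO and 11.3% in WT for Senp5, 30.5% in KO and 31.0% in WT for Senp6, and 11.5% in KO and 10.8% in WT for Senp7. No paired analysis was possible because each group has 1 library. Depth limits single folds to about the widths of the intervals given.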
